A study of Homo sapiens with 15 samples.

Results

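Genes of the mitotic spindle, the kinetochore and cytokinesis were followed across the 5 conditions of an RNA sequencing experiment on osimertinib-resistant lung adenocarcinoma cells. The set holds 49 listed symbols, picked by name for their part in cell division, with earlier results of these data known. Of these, 48 had a row among the 19612 gene symbols of the count table, and MAD2L1 was not analysed here. H1975 is a human lung adenocarcinoma line whose EGFR carries L858R and T790M, and H1975–OR is the osimertinib-resistant line derived from it, with the same EGFR status on its label. H1975–OR cells were maintained in 500 nM osimertinib, an EGFR kinase inhibitor, so the H1975–OR cells given vehicle or 1,25(OH)2D3 received no osimertinib during the experiment. H1975 cells were given vehicle (Samples 1a, 1b, and 1c). H1975–OR cells were given vehicle (Samples 2a to 2c), 100 nM 1,25(OH)2D3, the active form of vitamin D3 (Samples 3a to 3c), 500 nM osimertinib (Samples 4a to 4c), or both agents at these doses (Samples 5a to 5c). The agents were added at 0, 48, and 92 h and RNA was taken after 96 h. Each condition had 3 libraries, which the study describes as separate passages for vehicle and 1,25(OH)2D3. The parental line was sequenced only with vehicle, so no effect of either agent on H1975 can be given.

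These genes act in a narrow window of the cell cycle. CDK1 with its B-type cyclins drives cells into mitosis, Aurora and Polo-like kinases build the spindle and correct its attachments, and the NDC80 complex ties each kinetochore to microtubules under the watch of the BUB and TTK checkpoint kinases. The anaphase-promoting complex (APC/C) with CDC20 and UBE2C then has cyclin B and securin destroyed, separase opens cohesin, and ECT2, RACGAP1, PRC1, KIF23, and anillin (ANLN) help to divide the cell. Most of the genes are transcribed in G2 and M phase, in part through MuvB complexes with MYBL2 (B-MYB) and FOXM1, which act at the cell cycle homology region (CHR) of a promoter, often beside CCAAT boxes bound by NF-Y. Their summed RNA is therefore commonly read as a measure of dividing cells, and in a culture, fewer cells in mitosis and less of each RNA per cell cannot be told apart.

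The promoter stretches of 6 of the genes are shown first because the motifs in them were shared by many members, although the members were not chosen by sequence. They come from RefSeq on GRCh38.p14, each ends at the base before the gene's start in that table, and each is written 5′ to 3′ on the gene's strand. Capitals mark CHR elements (TTTGAA or TTTAAA) and CCAAT boxes on either strand, so that ATTGG and TTCAAA are matches on the opposite strand. In PTTG1 a CCAAT and an ATTGG overlap. In GENCODE release 44, 15 of the bases shown for CCNB1, 20 for CCNB2, and 29 for KIF18A lie in an annotated exon.

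CCNB1, chr5:69167030-69167149, plus strand: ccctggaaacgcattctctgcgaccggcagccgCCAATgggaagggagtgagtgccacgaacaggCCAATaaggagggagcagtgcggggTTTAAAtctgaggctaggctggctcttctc
CCNB2, chr15:59105006-59105145, plus strand: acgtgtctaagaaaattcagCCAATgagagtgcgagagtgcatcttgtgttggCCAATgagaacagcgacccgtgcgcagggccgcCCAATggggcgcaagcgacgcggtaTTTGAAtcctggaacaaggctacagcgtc
PTTG1, chr5:160421735-160421854, plus strand: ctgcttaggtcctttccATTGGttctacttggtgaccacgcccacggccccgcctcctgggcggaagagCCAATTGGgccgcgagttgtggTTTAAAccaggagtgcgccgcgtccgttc
TOP2A, chr17:40417897-40418096, minus strand: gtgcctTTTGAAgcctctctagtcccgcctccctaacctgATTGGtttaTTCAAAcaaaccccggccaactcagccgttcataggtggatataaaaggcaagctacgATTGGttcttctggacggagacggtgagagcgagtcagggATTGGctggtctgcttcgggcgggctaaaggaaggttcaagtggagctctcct
KIF18A, chr11:28108157-28108276, minus strand: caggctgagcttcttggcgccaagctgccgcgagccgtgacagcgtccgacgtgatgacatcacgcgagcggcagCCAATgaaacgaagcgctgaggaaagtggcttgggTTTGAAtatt
PLK4, chr4:127880773-127880892, plus strand: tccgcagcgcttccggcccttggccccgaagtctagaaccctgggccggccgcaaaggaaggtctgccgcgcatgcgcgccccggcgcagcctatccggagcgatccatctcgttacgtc

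CCNB1, CCNB2, and PTTG1 carry the arrangement best known for late cell cycle genes, with CCAAT boxes upstream of a CHR close to the start, and TOP2A carries several of both. KIF18A is shown because its promoter held both motifs while its RNA level did not follow the others. PLK4 is shown because its 250 bases held neither, while its RNA was lower in the resistant line, as theirs was. Of the 49 genes, 41 had a promoter in the RefSeq table, including MAD2L1, and 250 bases before the start were searched on both strands. A TTTGAA was found in 53.7% of the 41, against 13.6% of all 27305 promoters, and a TTTAAA in 31.7%, against 11.4%. At least 1 CCAAT was found in 73.2% of them (33% of all promoters), and at least 2 in 43.9% (10% of all). Both a CCAAT and a CHR element were found in 25 of the 41, or 61%, against 7.85% of all promoters. MYBL2, CDC25B, CDC25C, NDC80, NUF2, and KIF2C, like PLK4, held neither in this window. Bases after the start, or before other starts of the same gene, were not searched. A match is a run of letters and not a shown binding site, and the promoters were set side by side with no test.

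**Figure D1:**
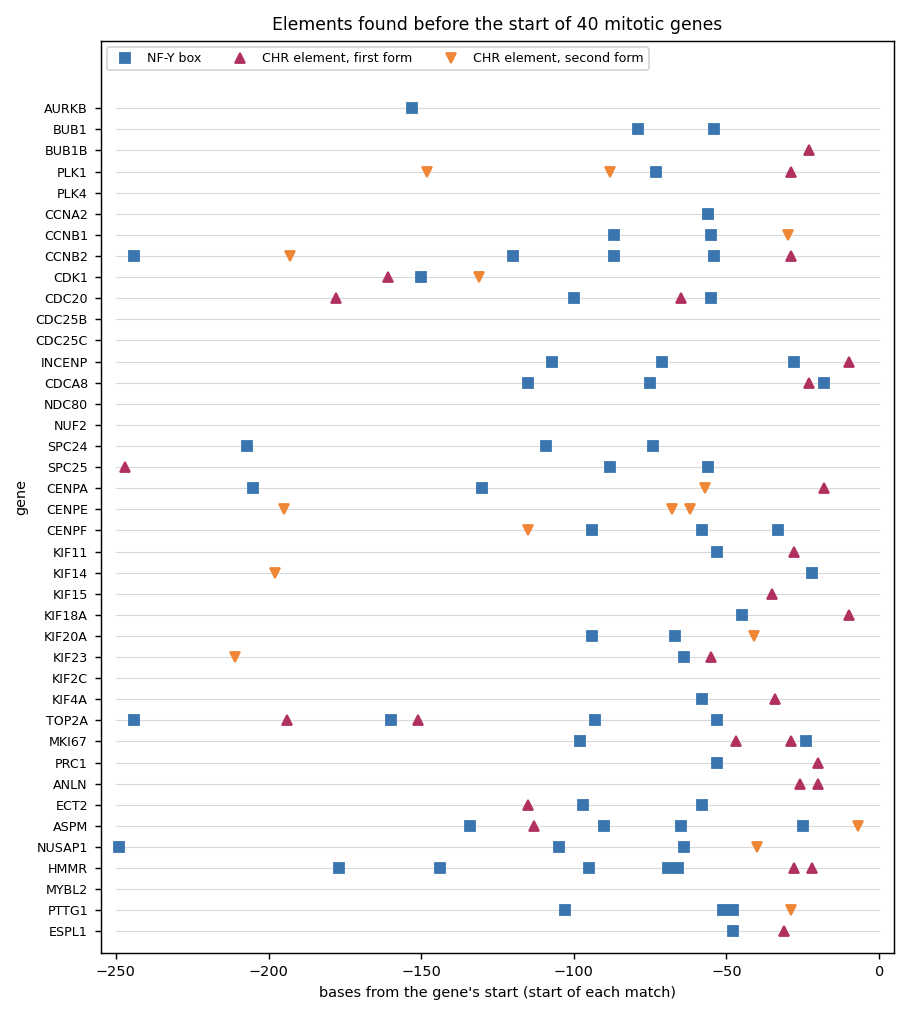
Positions of CHR elements (first form TTTGAA, upward triangles; second form TTTAAA, downward triangles) and NF-Y boxes (squares) in the 250 bases before the start of the 40 genes with both a count row and a promoter in the RefSeq table; the horizontal axis is the distance from the start in bases. In CCNB1, CCNB2, KIF11, PLK1, PRC1, and PTTG1, among others, a CHR element lay within 50 bases of the start with a CCAAT box farther upstream.

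The values are estimated counts per gene, made by the authors and rounded to whole counts here. The libraries held between 4378033 and 6140025 counts, with a median of 4974768. Levels are given as CPM (counts relative to the library total, as edgeR computes them) after TMM scaling of all 15 libraries, on which scale 1 count is worth between 0.159 and 0.236 CPM, and they are not scaled for gene length, so levels of different genes are not compared. CYP24A1, the vitamin D-induced hydroxylase, lay between 870 and 1470 CPM with 1,25(OH)2D3 and between 676 and 1060 CPM with both agents, against 3.31 to 9.13 CPM in the other H1975–OR libraries. The keratin genes KRT7, KRT8, and KRT18 were present in every library, while CDH1 and EPCAM lay between 5.21 and 12.7 CPM in vehicle-treated H1975–OR against 75 to 384 CPM in H1975. In the same libraries KRT7 and KRT19 were also lower in H1975–OR, and KRT18 was higher, at 2340 to 2550 against 1780 to 2050 CPM. KRT8 and NKX2-1 overlapped between the lines. Markers of other cell types summed to at most 17.3 CPM for endothelial genes, with CD3E at 0 throughout, but the monocyte gene CD14 reached 50.9 CPM in Sample 3a, against at most 6.93 CPM elsewhere, and fibroblast markers reached 166 CPM in H1975–OR (COL3A1) against 1.73 CPM in H1975. Sample 3a, which the study left out, also had the highest share of mitochondrial counts, 1.54% against 0.424% to 1.05% elsewhere, and it was left out of the fits here. The test was edgeR's quasi-likelihood test, two-sided, with Benjamini-Hochberg adjustment over all genes, at a threshold of 0.05. The p-values measure the spread between replicate libraries of these lines, described as separate passages for vehicle and 1,25(OH)2D3.

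Across the 5 conditions, mitotic RNA was highest in the parental cells and, within H1975–OR, highest with osimertinib and lowest with 1,25(OH)2D3. The 48 genes together took between 0.676% and 0.822% of the counts in H1975, and between 0.138% and 0.422% in the H1975–OR libraries. Their summed level was 6600, 6640, and 7760 CPM in the H1975 libraries. In H1975–OR its lowest, median, and highest values were 1940, 2080, and 3470 CPM with vehicle, 1450, 1820, and 2510 CPM with 1,25(OH)2D3, 3030, 3530, and 4100 CPM with osimertinib, and 2120, 2490, and 3250 CPM with both agents. H1975 did not overlap any H1975–OR group, whereas neighbouring H1975–OR groups overlapped. A difference among the 5 conditions passed the edgeR test for 38 of the 48 genes, where 21.2% of all 12819 genes tested did. Of the group means within H1975–OR, without Sample 3a, osimertinib had the highest for 45 of the 48 genes and 1,25(OH)2D3 the lowest for 45. The 1,25(OH)2D3 mean holds no library lettered a. In the other groups that library was the highest for between 35 and 40 of the 48 genes. With the letter a left out, the median log2 fold change of 1,25(OH)2D3 against vehicle was -0.33. The ranking of means was not made over all genes.

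**Figure D2:**
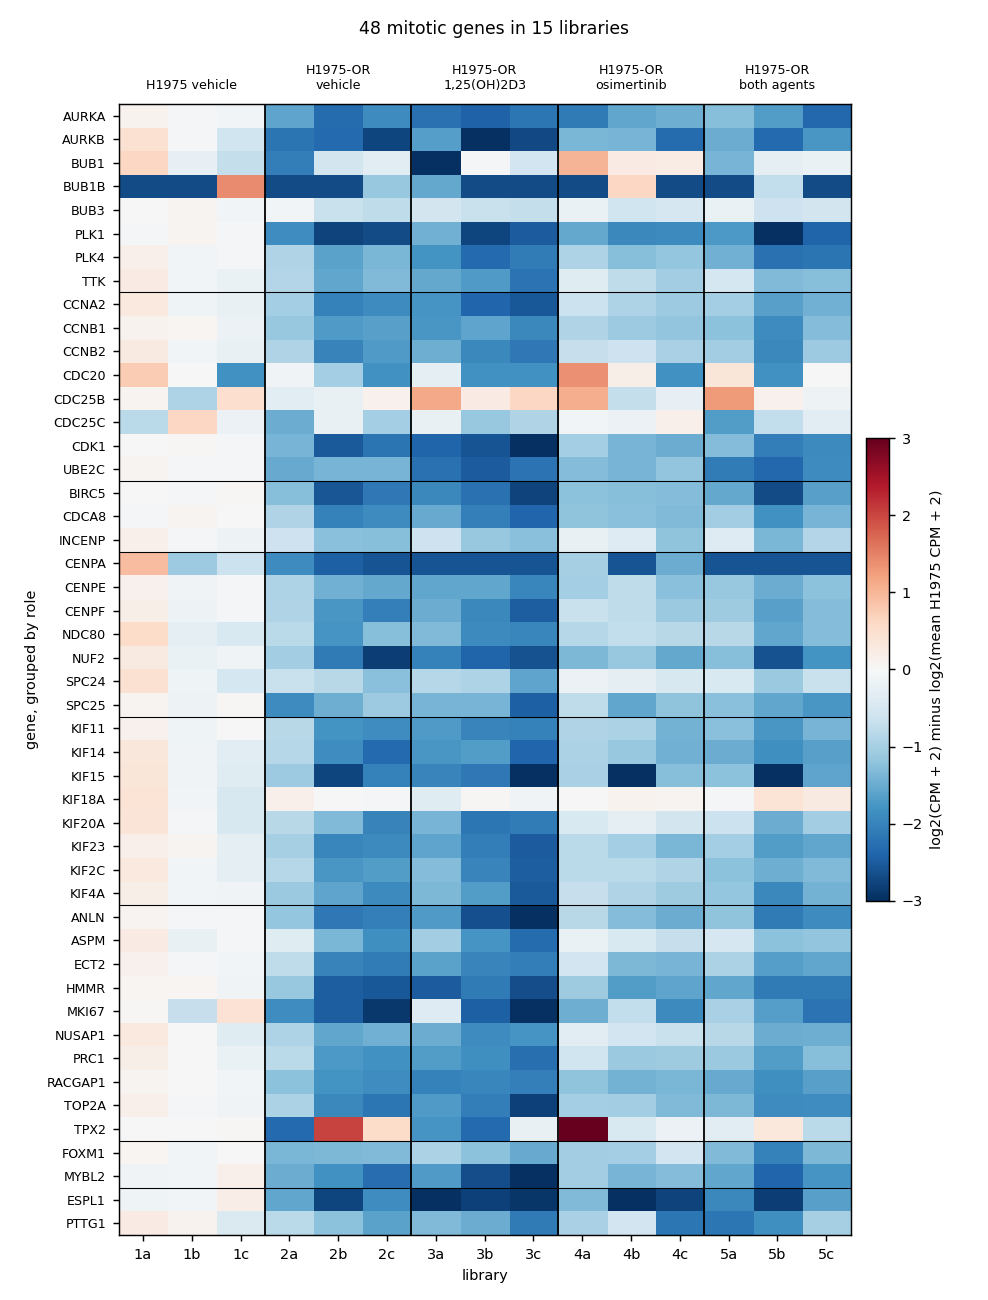
Level of each of the 48 genes in each of the 15 libraries, as log2(CPM + 2) minus the log2(mean H1975 CPM + 2), with genes in rows grouped by role and libraries in columns grouped by condition; colors are limited to 3 in either direction. Blue fills most of the H1975–OR columns, is palest with osimertinib (4a to 4c) and deepest in Samples 3b and 3c, while KIF18A stays near white.

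The first comparison asked how vehicle-treated H1975–OR differed from vehicle-treated H1975. Mitotic genes were lower in the resistant line in every role. Of the 48 genes, 37 were lower and 0 higher past the edgeR threshold, where 10.3% of all 12513 genes tested were lower and 9.89% were higher. DESeq2 gave 40 lower and 0 higher, where 12.8% of all genes were lower, and at an unadjusted p under 0.05 edgeR gave 41 lower and 0 higher, where 17% of all genes were lower. The median log2 fold change of the 48 was -1.49, a 2.8-fold lower level, against 0.01 over all genes. For 40 of them the highest H1975–OR vehicle library lay below the lowest H1975 library, which 20.3% of all genes did. The count was 38 of 47 tested without Samples 1a and 2a, the libraries lettered a in this fit, where 1510 of 12293 genes were lower.

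Among the kinases, 5 of 8 fell. PLK1, which drives centrosome maturation and mitotic entry, was at 69, 74.9, and 69.6 CPM in Samples 1a to 1c and at 18.2, 8.69, and 9.45 CPM in Samples 2a to 2c. The 2 lines were far apart for this gene, with a log2 fold change of -2.54 ± 0.282 (SE; edgeR adjusted p = 0.000956). AURKA, the spindle pole Aurora kinase, was at 147, 131, and 128 CPM in H1975 and at 44.2, 25.9, and 35.1 CPM in H1975–OR (log2 fold change -1.94 ± 0.197, edgeR adjusted p = 0.000649). AURKB, the Aurora kinase of the centromere and midzone, fell from between 49 and 104 CPM to between 9.45 and 14.9 CPM (log2 fold change -2.57 ± 0.319, edgeR adjusted p = 0.00154). PLK4, the kinase of centriole duplication, was at 53.7, 45.2, and 46 CPM and then at 24.8, 14.5, and 17.4 CPM. Its 2 groups did not overlap either (log2 fold change -1.34 ± 0.228, edgeR adjusted p = 0.00535). TTK was the other kinase past the threshold. BUB3, a checkpoint protein that also has a part in RNA splicing, was at 295, 311, and 278 CPM in H1975 and at 280, 186, and 172 CPM in H1975–OR, so its groups overlapped through Sample 2a.

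Of the cyclins, CDK1 and its regulators, 5 of 8 fell. CDK1 was at 178, 180, and 169 CPM in H1975 and at 65.7, 29, and 37.2 CPM in H1975–OR (log2 fold change -1.98 ± 0.276, edgeR adjusted p = 0.0024). CCNB1, its cyclin partner, was at 388, 370, and 317 CPM and then at 161, 108, and 115 CPM. UBE2C, the ubiquitin-conjugating enzyme of the APC/C, was at 159, 144, and 143 CPM in H1975 and at 50.9, 55.2, and 55.9 CPM in H1975–OR. The passages of each line were close together for UBE2C, and its log2 fold change of -1.45 ± 0.126 had the smallest p of the 48 genes (edgeR adjusted p = 0.00036). CCNA2 and CCNB2 also fell. CDC25B and CDC25C, phosphatases that activate CDK1, did not pass the threshold, with log2 fold changes of -0.13 and -1.12.

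The 3 chromosomal passenger genes, which encode the partners of AURKB, all fell. BIRC5 (survivin) was at 143, 137, and 146 CPM in H1975 and at 57.3, 22.3, and 30.8 CPM in H1975–OR (log2 fold change -1.93 ± 0.314, edgeR adjusted p = 0.00453). INCENP fell from between 45.6 and 57 CPM to between 19.7 and 32.1 CPM, and CDCA8 (borealin) from between 57.2 and 63.3 CPM to between 13.2 and 30.9 CPM.

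Of the 7 kinetochore and centromere genes, 6 fell. NUF2, a subunit of the NDC80 complex, was at 86.3, 62.5, and 66.1 CPM in H1975 and at 33.6, 14.9, and 8.48 CPM in H1975–OR (log2 fold change -1.90 ± 0.425, edgeR adjusted p = 0.0157). CENPF, a large protein of the outer kinetochore, was at 623, 490, and 533 CPM and then at 294, 162, and 130 CPM. The exception was SPC24, whose 75.5 to 150 CPM in H1975 did not overlap its 44.2 to 68.1 CPM in H1975–OR but gave an edgeR adjusted p = 0.058. CENPA, the centromeric histone H3 variant, was at 20.8, 3.65, and 5.7 CPM in H1975 and at 1.23, 0.207, and 0 CPM in H1975–OR, the last 2 being 1 count and 0 counts. Its log2 fold change of -4.33 ± 1.14 (edgeR adjusted p = 0.0344) rests on these counts, and it missed the threshold in 6 of 14 alternative analyses.

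Of the 8 kinesin genes, 6 fell. KIF11 (Eg5), which pushes spindle poles apart, was at 201, 167, and 185 CPM in H1975 and at 103, 51.5, and 49 CPM in H1975–OR. KIF15, which shares that work, was at 78, 55.6, and 46.6 CPM and then at 27.4, 7.24, and 13.3 CPM, with an edgeR adjusted p = 0.076. KIF18A, which damps chromosome movements on the metaphase plate and was singled out after its values were seen, behaved unlike its family. It was at 91, 63.4, and 48 CPM in H1975 and at 74.7, 67, and 65.2 CPM in H1975–OR (log2 fold change 0.04 ± 0.217, edgeR adjusted p = 0.909). In the other 9 libraries it lay between 51.7 and 90.3 CPM, and no test among the 5 conditions called it (edgeR adjusted p = 0.812).

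Of the 10 other spindle, chromosome and cytokinesis genes, 8 fell. TOP2A, the topoisomerase that untangles chromosomes, was at 850, 749, and 711 CPM in H1975 and at 400, 200, and 171 CPM in H1975–OR. MKI67, the Ki-67 proliferation marker that coats mitotic chromosomes, was at 335, 201, and 444 CPM and then at 88.4, 56.9, and 42.4 CPM (log2 fold change -2.37 ± 0.377, edgeR adjusted p = 0.00417). HMMR, a spindle assembly protein, was at 116, 117, and 104 CPM and then at 49.9, 18.6, and 17.5 CPM (log2 fold change -1.95 ± 0.381, edgeR adjusted p = 0.00925). The groups of both genes were clearly apart. ASPM, a spindle pole protein, did not overlap either, at 125 to 174 CPM in H1975 and 39.5 to 113 CPM in H1975–OR, but missed the threshold (edgeR adjusted p = 0.0679).

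Both transcription factors and both genes of the separase pair fell. MYBL2 was at 217, 221, and 260 CPM in H1975 and at 81.6, 64.9, and 45.9 CPM in H1975–OR (log2 fold change -1.84 ± 0.211, edgeR adjusted p = 0.00109). FOXM1 was at 69.5, 63.6, and 68.2 CPM and then at 24.6, 25, and 25.4 CPM, with little spread among passages. ESPL1 (separase) was at 24.4, 25.3, and 31.3 CPM in H1975 and at 7.78, 2.28, and 5.98 CPM in H1975–OR (log2 fold change -2.32 ± 0.403, edgeR adjusted p = 0.00581). PTTG1 (securin), which has near-identical relatives among which reads can be split, was at 115, 104, and 71.4 CPM and then at 54.6, 40.3, and 30.5 CPM.

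**Figure D3:**
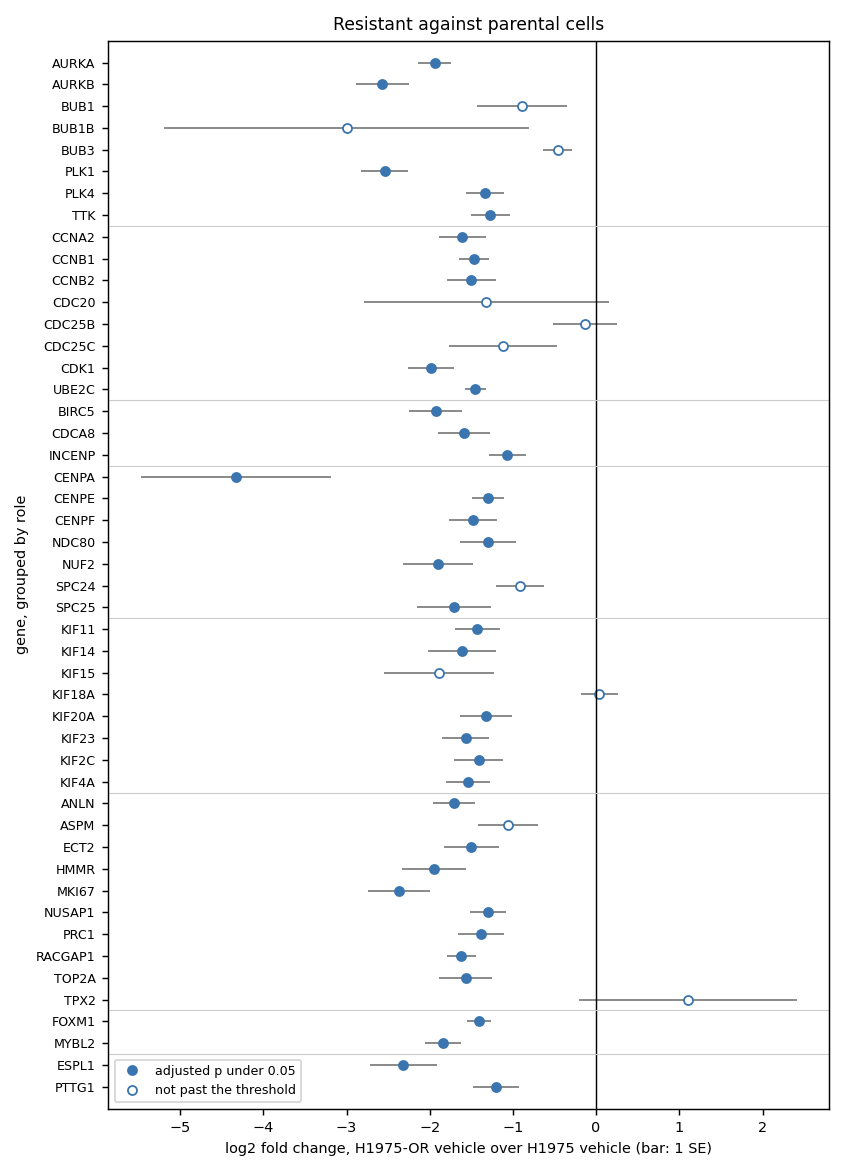
log2 fold change of vehicle-treated H1975–OR over vehicle-treated H1975 (horizontal axis, bars of 1 SE) for the 48 genes in rows, grouped by role; filled points passed an edgeR adjusted p under 0.05. The 37 filled points all lie below 0, and KIF18A and TPX2 are the 2 genes above 0.

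The level in the resistant line stayed below the parental one whatever H1975–OR was given. For 34 of the 48 genes, all 12 H1975–OR libraries, Sample 3a included, lay below every H1975 library, which 10.9% of 12819 genes did. For 0 of the 48 did all 12 lie above, where 8% of the 12819 genes did. The 14 of the 48 not below in all 12 were ASPM, BUB1, BUB1B, BUB3, CDC20, CDC25B, CDC25C, CENPA, KIF18A, KIF20A, MKI67, NUSAP1, SPC24, and TPX2.

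Genes of the same processes outside the 48 showed where the lower level extended in the resistant line. Beside the 10.3% of all genes called lower, 23 of 29 other G2/M genes were lower, among them NEK2 (log2 fold change -2.41) and KIFC1 (-1.82), with a median of -1.57. Of the inner kinetochore, KNL1 and MIS12 genes 14 of 25 were lower (median -1.08, with ZWINT at -1.95), and of the condensin subunits 6 of 8 (median -1.04, with SMC4 at -2.36). Cohesin genes gave 7 of 12 lower (median -0.60), and augmin, gamma-tubulin and centrosome genes gave 7 of 22 lower and 1 higher (median -0.75). APC/C subunits, most of which are not known as cell cycle-regulated at the RNA level, gave 4 of 17 lower with a median of -0.10. DREAM and MuvB subunits gave 1 of 12 lower, RBL1 (log2 fold change -1.08), with a median of -0.36. DNA replication genes, which act in S phase, gave 25 of 35 lower with a median of -1.27, with RRM2 at -2.93 and MCM5 at -2.15.

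The second comparison asked what 1,25(OH)2D3 did to vehicle-treated H1975–OR cells, which are also the controls of the osimertinib comparisons that follow. Levels of mitotic genes were lower with 1,25(OH)2D3 on average, but the edgeR test called 0 of the 48 in either direction, and also 0% of all 12513 genes as lower. The median log2 fold change was -0.64, and 46 of the 48 values were below 0, where 51.2% of all genes were. Without BUB1B, CDC20, and CENPA, which were listed at 0 in both libraries of the group, the median was -0.62. At an unadjusted p under 0.05, 13 of the 48 were lower (3.63% of all genes) and 0 were higher. DESeq2 called 3 lower, UBE2C, MYBL2, and ANLN, where it called 0.36% of all genes lower. Samples 3b and 3c lay below all 3 vehicle libraries for 18 of the 48, where 12.3% of all genes did. Only CDC25B of the 48 lay above in both, where 13.1% of all genes did. With Sample 3a also required to lie below, only UBE2C, PLK4, CENPE, RACGAP1, and ESPL1 were left. The share of all genes was not counted with Sample 3a.

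UBE2C was at 50.9, 55.2, and 55.9 CPM with vehicle and at 24.7 and 30.7 CPM in Samples 3b and 3c, and at 29.9 CPM in Sample 3a. The 3 libraries with 1,25(OH)2D3 all lay below the 3 with vehicle, with a log2 fold change of -0.96 ± 0.147 and an edgeR adjusted p = 0.0613 (unadjusted p = 0.00013). Its adjusted p ranged from 3.56e-05 to 0.367 over 15 alternative analyses, 4 of which passed the threshold. PLK4 was at 24.8, 14.5, and 17.4 CPM with vehicle and at 7.95 and 9.66 CPM in Samples 3b and 3c, and at 12.6 CPM in Sample 3a (log2 fold change -1.09 ± 0.273, edgeR adjusted p = 0.349). MYBL2 was at 35 and 26.9 CPM in Samples 3b and 3c, below its 45.9 to 81.6 CPM with vehicle, and at 70.3 CPM in Sample 3a, within that range (log2 fold change -1.05 ± 0.246, edgeR adjusted p = 0.285). ANLN, which scaffolds the cleavage furrow, was at 352, 178, and 189 CPM with vehicle and at 125 and 97.2 CPM in Samples 3b and 3c (log2 fold change -1.11 ± 0.29, edgeR adjusted p = 0.389). Sample 3a held 242 CPM of ANLN, inside the vehicle range. KIF15 and TPX2 had larger log2 fold changes with wider errors, -1.31 ± 0.81 (edgeR adjusted p = 0.799) and -2.32 ± 1.62 (edgeR adjusted p = 0.824). FOXM1 was at 27.5 and 22.3 CPM beside 24.6 to 25.4 CPM with vehicle, a log2 fold change of -0.01. UBE2C, PLK4, and MYBL2 were named because a picture of the study shows them, so they are not an independent choice for this comparison.

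The size of this difference moved with single libraries. Sample 2a stood above Samples 2b and 2c for 40 of the 48 genes, and without it the median log2 fold change was -0.34. With Sample 3a kept in, it was -0.46. The 13 genes lower at an unadjusted p under 0.05 became 7 without Sample 2a, 21 without Sample 2b, 22 without Sample 2c, and 6 with Sample 3a kept in. Shares of all genes at that cut were not counted in these fits. Without Sample 3c, which left 1 library with 1,25(OH)2D3, the median log2 fold change was -0.52. In all 5 groups the library lettered a was the highest for between 35 and 40 of the 48 genes, and the median of a minus the mean of b and c on the log2(CPM + 2) scale was 0.24 in H1975, 0.68 with vehicle, 0.51 with 1,25(OH)2D3, 0.30 with osimertinib, and 0.52 with both agents, against 0 or 0.01 over all genes. With each 1,25(OH)2D3 library set against its same-letter vehicle library, the median difference was -0.59, -0.12, and -0.43 for a, b, and c, with 38, 32, and 38 of 48 genes lower. Mitochondrial shares were highest in Samples 3a, 1a, 4a, and 5a (1.04% to 1.54%). The part of these features in the result was not tested.

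**Figure D4:**
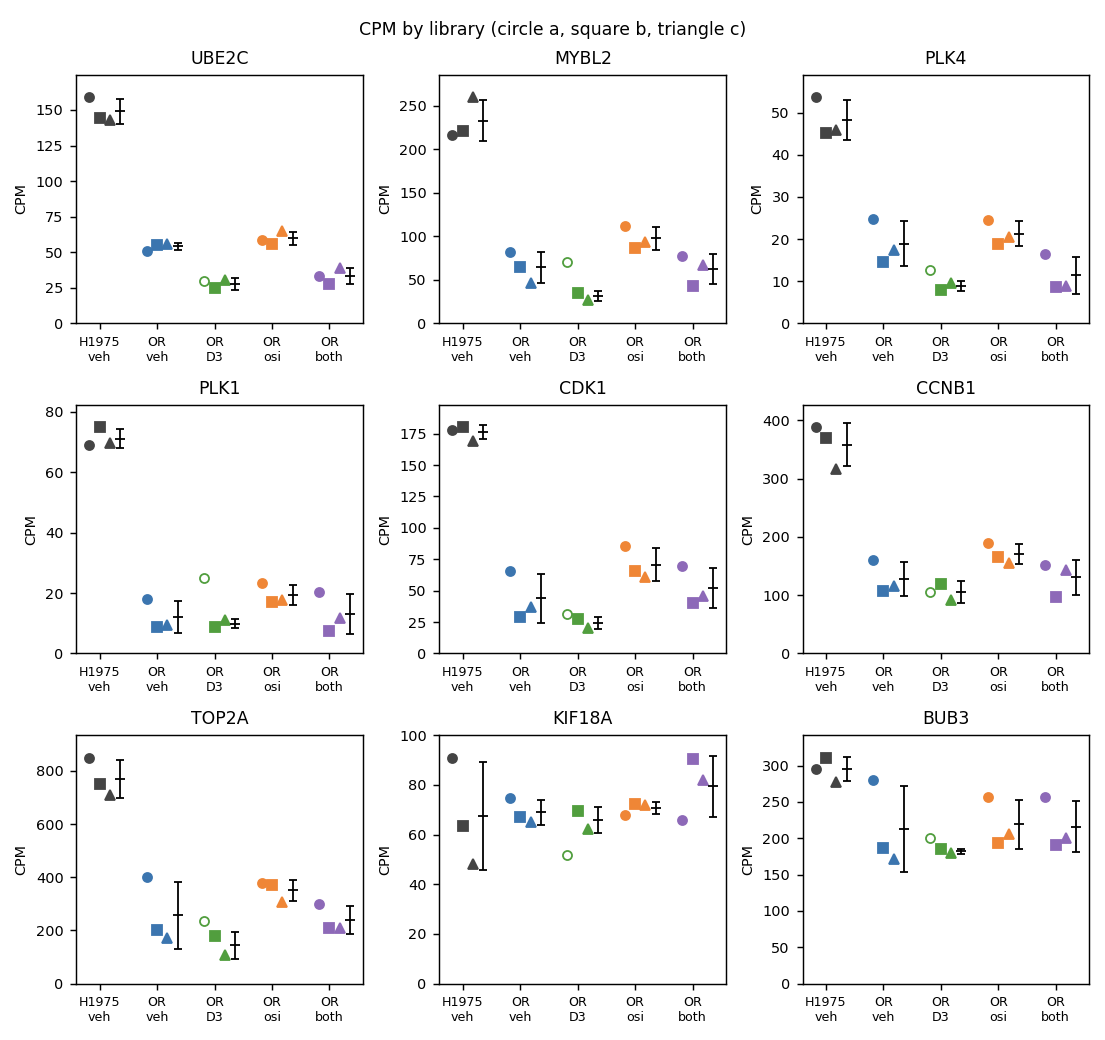
CPM (linear axes from 0) of 9 of the genes in each of the 15 libraries, by condition; circles are libraries a, squares b, triangles c, the open circle is Sample 3a, and the black bar is the mean ± SD of 3 libraries, or of Samples 3b and 3c for 1,25(OH)2D3. UBE2C, MYBL2, and PLK4 have their lowest means with 1,25(OH)2D3, KIF18A lies between 48 and 91 CPM in every condition, and the a library of TOP2A is the highest of each group.

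The third comparison set H1975–OR cells given osimertinib against those given vehicle. The line had been maintained in the drug, so the comparison is of continued drug with its removal during the experiment. A rise with the drug and a fall after its removal cannot be told apart. Levels of mitotic genes were higher with the drug on average, with a median log2 fold change of 0.53 and 47 of the 48 values above 0, where 51% of all genes were. The edgeR test called 0 of the 48, where 0.032% of all 12503 genes were called higher, and DESeq2 also called 0. At an unadjusted p under 0.05, 12 were higher (3.62% of all genes) and 0 lower. For 8 genes, BUB1, CDC25C, SPC24, KIF20A, KIF4A, NUSAP1, FOXM1, and MYBL2, the 3 osimertinib libraries lay above the 3 vehicle libraries, which 5.96% of all genes did. The letters of the libraries paired these groups, and with the letter as a block NUSAP1 passed the threshold, where 0.184% of all genes were called higher. In that fit 27 of the 48 were higher at an unadjusted p under 0.05 (7.05% of all genes).

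NUSAP1, which bundles spindle microtubules, was at 72.2, 46.5, and 50.3 CPM with vehicle and at 111, 93, and 87.5 CPM with osimertinib. All 3 osimertinib libraries were above, and the blocked log2 fold change was 0.81 ± 0.108 (edgeR adjusted p = 0.0366), against 0.79 and an adjusted p of 0.386 with edgeR without the block. By size of change the first 3 genes with at least 50 counts on average were BUB1, TPX2, and MKI67. MKI67 was at 88.4, 56.9, and 42.4 CPM with vehicle and at 118, 196, and 86.1 CPM with osimertinib, which overlap (log2 fold change 1.10 ± 0.418, edgeR adjusted p = 0.567). BUB1, a checkpoint kinase, was at 4.5, 16.5, and 19.7 CPM and then at 53.3, 30.3, and 29.7 CPM (log2 fold change 1.48 ± 0.518, edgeR adjusted p = 0.518). TPX2, the activator of AURKA, was at 0, 38.9, and 12.7 CPM and then at 117, 5.32, and 6.95 CPM, and its log2 fold change of 1.34 turned to -1.48 without Sample 4a. UBE2C, at 58.8, 55.7, and 64.6 CPM with osimertinib, had a log2 fold change of 0.15, and PLK4 0.18. KIF18A, at 67.7, 72.5, and 71.8 CPM, had 0.04.

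Within letters, the median difference of osimertinib from vehicle was 0.22, 0.78, and 0.63 for a, b, and c, with 35, 42, and 41 of 48 genes higher. Without Sample 2a the median log2 fold change was 0.91. The 12 genes higher at an unadjusted p under 0.05 became 31 without Sample 2a, 5 without Sample 2b, 3 without Sample 2c, 4 without Sample 4a, and 6 without Sample 4b. Shares of all genes at that cut were not counted in these fits.

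The fourth comparison asked what 1,25(OH)2D3 did in the presence of osimertinib. Levels were lower with both agents than with osimertinib alone on average. The median log2 fold change was -0.50 (-0.49 without CENPA, listed at 0 with both agents), with 45 of 48 values below 0, where 49.4% of all genes were. The edgeR test called 0 of the 48, where 0.04% of all genes were called lower. At an unadjusted p under 0.05, 7 were lower (2.09% of all genes) and 0 higher, and DESeq2 called 1, UBE2C, where it called 0.16% of all genes lower. For 16 genes all 3 libraries with both agents lay below all 3 with osimertinib, which 4.11% of all genes did. With the letters as a block, UBE2C and NUSAP1 passed the threshold (0.08% of all genes were lower), and 23 were lower at an unadjusted p under 0.05 (4.34% of all genes).

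UBE2C was at 58.8, 55.7, and 64.6 CPM with osimertinib and at 33.1, 27.7, and 38.9 CPM with both agents. The groups were well apart, with a blocked log2 fold change of -0.86 ± 0.121 (edgeR adjusted p = 0.0429), and -0.85 ± 0.157 without the block (edgeR adjusted p = 0.178). PLK4 went from 24.5, 18.8, and 20.5 CPM to 16.4, 8.7, and 8.96 CPM (log2 fold change -0.91 ± 0.312, edgeR adjusted p = 0.986). MYBL2 went from 112, 86.8, and 93.9 CPM to 77.8, 43, and 66.5 CPM (log2 fold change -0.65 ± 0.255, edgeR adjusted p = 1). Neither gene overlapped between the 2 groups. NUSAP1 was at 77.6, 48.9, and 49.3 CPM with both agents, each below its 87.5 to 111 CPM with osimertinib (blocked log2 fold change -0.77 ± 0.109, edgeR adjusted p = 0.0429). BUB1 had a log2 fold change of -1.17 ± 0.514 and TPX2 one of -2.68 ± 1.55, with edgeR adjusted p = 1 for both.

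Within letters, the median difference of both agents from osimertinib was -0.32, -0.77, and -0.31 for a, b, and c, with 41, 42, and 38 of 48 genes lower. Without Sample 5b the median log2 fold change was -0.32. The 7 genes lower at an unadjusted p under 0.05 became 4 without Sample 4a, 13 without Sample 5a, and 3 without Sample 5b. Shares of all genes at that cut were not counted in these fits. The difference between the effects of 1,25(OH)2D3 with and without osimertinib was itself tested and called 0 of the 48 with edgeR and 0 with DESeq2 (edgeR called 0% of all genes lower, and DESeq2 called 9 of 12503 genes lower and 2 higher). At an unadjusted p under 0.05, only BUB1 differed (1.42% of all genes), and the median of the difference was 0.22, or -0.09 without Sample 2a.

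The remaining pairs set both agents against vehicle and against 1,25(OH)2D3, and they reuse the libraries above. Against vehicle the median log2 fold change with both agents was 0.03, and it was 0.40 without Sample 2a and between -0.13 and 0.20 without any other library. Within letters the median difference was -0.10, 0.02, and 0.35 for a, b, and c, with 17, 25, and 37 of 48 genes higher. The edgeR test called 0 of the 48, where 0.112% of all genes were lower and 0.384% higher, and at an unadjusted p under 0.05 only UBE2C and PLK4 were lower (6.09% of all genes) and 0 were higher. PLK4 had a log2 fold change of -0.73 ± 0.312 (edgeR adjusted p = 0.372) and UBE2C one of -0.71 ± 0.157. At 33.1, 27.7, and 38.9 CPM the 3 libraries of UBE2C all lay below the vehicle libraries. UBE2C was the only one of the 48 genes to do so, where 8.22% of all genes did. It passed with the block (log2 fold change -0.72 ± 0.121, edgeR adjusted p = 0.023, where 1.42% of all genes were lower) and with DESeq2 (1.07% of all genes lower), and had an edgeR adjusted p = 0.103 without the block. With Sample 2a left out, 8 of the 48 were higher and 1 lower at an unadjusted p under 0.05. The share of all genes at that cut was not counted without Sample 2a. MKI67 and CDC25B had log2 fold changes of 0.84 ± 0.417 (edgeR adjusted p = 0.452) and 0.76 ± 0.533 (edgeR adjusted p = 0.621). Against 1,25(OH)2D3, both agents gave a median of 0.68 and 0 of 48 calls with edgeR (0.12% of all genes higher). At an unadjusted p under 0.05, 15 were higher (5.77% of all genes) and 0 lower, and DESeq2 called CCNA2 and KIF20A higher (1.32% of all genes). Without Sample 5a this median was 0.44, and the 15 became 8 without Sample 5a and 3 without Sample 3c. The first 3 by size were MKI67, AURKB, and KIF15, with log2 fold changes of 1.33, 1.26, and 1.23 and edgeR adjusted p = 0.321, 0.276, and 0.716.

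**Figure D5:**
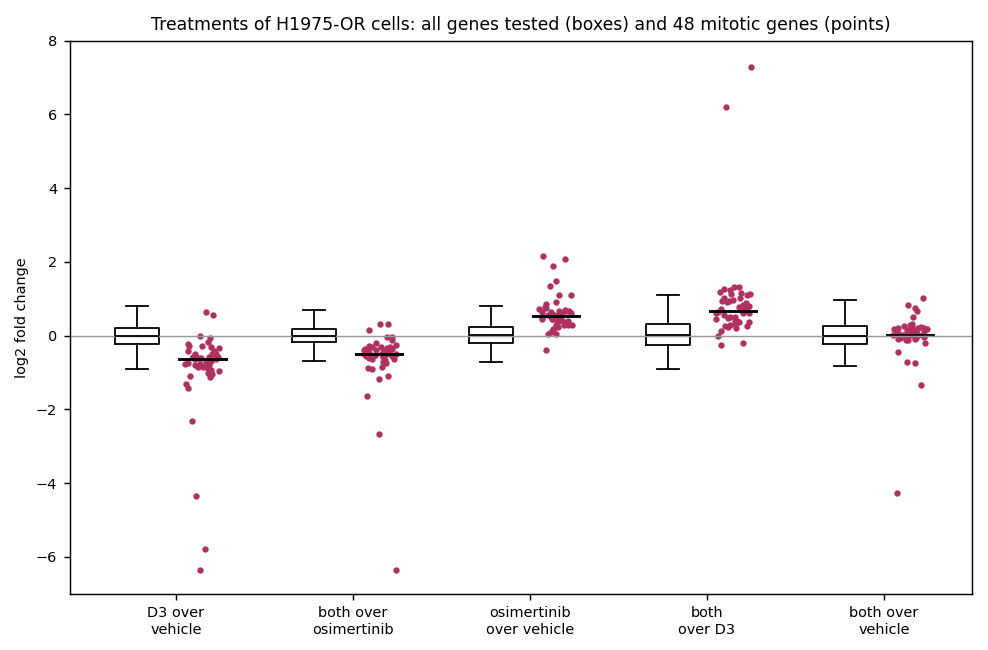
log2 fold changes in 5 comparisons of H1975–OR treatments; points are the 48 mitotic genes with their median as a black line, and boxes give the median, quartiles, and 5th and 95th percentiles of all genes tested. The points sit below 0 where 1,25(OH)2D3 was added (medians -0.64 and -0.50) and above 0 for osimertinib against its removal (0.53 and 0.68). They sit around 0 for both agents over vehicle (0.03). The far points are genes listed at 0 in some libraries.

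Each agent's effect averaged over the 2 settings of the other, an analysis added after the data were seen, drew on 11 H1975–OR libraries and called a few genes. For 1,25(OH)2D3 the averaged effect was past the edgeR threshold for UBE2C, at -0.91 ± 0.12 (adjusted p = 0.0144, where 0.032% of all genes were lower). With the letters as a block it was past the threshold for UBE2C, PLK4, ANLN, and NUSAP1, with log2 fold changes of -0.92, -0.91, -0.66, and -0.57, where 0.432% of all genes were lower. For osimertinib it was past the threshold for KIF20A alone, the kinesin of the central spindle, at 1.03 ± 0.223 (edgeR adjusted p = 0.0474, where 1.06% of all genes were higher). With the block it was past the threshold for 13 of the 48, where 3.73% of all genes were higher. These were MKI67 (1.12), KIF20A (0.97), CCNA2 (0.87), CDK1 (0.78), ASPM (0.78), MYBL2 (0.73), ANLN (0.71), CENPF (0.71), KIF2C (0.71), TTK (0.66), KIF23 (0.62), NUSAP1 (0.61), and ECT2 (0.44), as log2 fold changes. No gene of the 48 was called in the other direction in these 4 fits.

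BUB1, BUB1B, CDC20, CENPA, and TPX2 had libraries listed at 0 beside clear signal in others, and their values carry little weight. BUB1B, the BubR1 checkpoint kinase, was listed at 0 in 10 libraries but at 32.4 CPM in Sample 1c and 17.6 CPM in Sample 4b, and its locus overlaps the annotated readthrough gene BUB1B-PAK6 on the same strand. CENPA was at 0 in 8 libraries, CDC20 in 6, TPX2 in 2, and BUB1 in 1, Sample 3a. TPX2 and CDC20 are used by every dividing cell, so a 0 here is the listed value only. In GENCODE release 44 on GRCh38, 22 of the 48 genes overlap a gene on the opposite strand and 10 another gene on their own, so reads there may be shared.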

How the data were processed

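The authors prepared stranded, ribosomal RNA-depleted total RNA libraries, sequenced them paired-end on a NextSeq500, assigned reads to hg38 with Kallisto and summed transcripts to genes with tximport. The submitters' processing notes list kallisto 0.43.0, STAR 2.5.2b, and CASAVA 1.8.2 and the build GRCh38. The transcript annotation, the tximport settings and the strand setting are not given in the sources used here. The deposited values are the authors' estimated counts per gene, with no scaling for depth or length. They were rounded to whole counts, and the depth was 4378033 to 6140025 counts per library, so 3 counts, the floor used, equal 0.477 to 0.708 CPM (counting error only).

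Analysis used edgeR 4.0.16 and limma 3.58.1 in R 4.3.3, filterByExpr by group (minimum count 10, minimum total 15), TMM, and the quasi-likelihood test with Benjamini-Hochberg adjustment over all genes tested. H1975–OR against H1975 and 1,25(OH)2D3 against vehicle shared one fit of 8 libraries (12513 genes), the other comparisons of H1975–OR one fit of 11 libraries (12503 genes), and the 5-condition test one fit of 14 libraries (12819 genes). DESeq2 1.42.0, RLE size factors, other filters, all 14 libraries in one fit, the 2 compared groups alone, Sample 3a kept in, the replicate block and each library left out in turn were alternatives. The fits were tested on simulated data. Replicates of a group differed by more than sampling noise.

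Vehicle, osimertinib and both-agent libraries of H1975–OR with the same letter deviated together from their group means, with correlations of 0.31, 0.12, and 0.20 (vehicle and osimertinib, a to c), 0.34, 0.12, and 0.18 (vehicle and both), and 0.47, 0.28, and 0.26 (osimertinib and both), all over 0.1. The pairing of these 3 groups is read from the data, since no label says that a letter marks a shared passage.

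Members and lists were chosen with earlier results of these data known. Statistics were given, per comparison, for at most 10 called genes by size, or otherwise for the 3 largest changes among genes with a mean of at least 50 counts. They were also given for MYBL2, UBE2C, and PLK4, which appear in a picture of the study and not in its text. The study's picture of cell cycle genes shows core enrichment genes found in these same libraries, so genes taken from it are not an independent choice. In each role the gene with the highest mean CPM was given by library. Other genes were named after their values were seen. Markers, with the lists they belong to, were EPCAM, KRT7, KRT8, KRT18, KRT19, CDH1, and NKX2-1 (epithelial line), PDGFRA, DCN, LUM, and COL3A1 (fibroblast), PTPRC, CD3E, and CD14 (leukocyte), and PECAM1, CDH5, VWF, and KDR (endothelial). Another marker is not reported here.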

Additional observations from a re-analysis of the deposited data

How the results depend on the processing

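The 37 lower calls in H1975–OR against H1975 became between 29 (without Sample 2b, where 736 of 12461 genes were lower) and 39 (without Sample 2a, 1497 of 12450 genes), 40 with DESeq2 (1603 of 12513 genes), 35 with Sample 3a kept in (876 of 12325 genes), and 38 with the replicate block (1112 of 12513 genes), for which same-letter libraries of the lines did not deviate together. Where edgeR called none of the 48, alternatives called a few, and which library or setting caused this was not tested. For 1,25(OH)2D3 against vehicle these were 3 with DESeq2 (45 genes lower in all), 1 with at least 10 counts in every library (2 genes), 1 with all 14 libraries in one fit (3 genes), and, added after seeing the data, 1 in 11 H1975–OR libraries with the block (7 genes) and 1 and 4 as the mean over both settings of osimertinib without and with it. For osimertinib against vehicle they were 1 with the replicate block (23 genes higher in all) and, added later, 1 without the letter a (45 genes) and 1 and 13 as the mean over both settings of 1,25(OH)2D3 without and with the block. Both agents against osimertinib gave 1 with DESeq2 (20 genes lower in all), 2 with the block (10 genes), and 1 with all 14 libraries (7 genes); both agents against vehicle gave 1, 1, and 1 (134, 178, and 35 genes lower); both agents against 1,25(OH)2D3 gave 2 with DESeq2 (165 genes higher) and 1, ANLN, with the block (102 genes). For the 1,25(OH)2D3 libraries only b and c were left, so whether the letters paired them cannot be judged. Same-letter correlations with the other H1975–OR groups were 0 to 0.07 for Sample 3b and 0.11 to 0.16 for Sample 3c. Samples 3b and 4a, of different letters, gave 0.13. The block changed no other count of calls among the 48 by over 1.5 times. Over all genes it moved more, with higher calls going from 19 to 9 for 1,25(OH)2D3 against vehicle. For both agents against vehicle they went from 48 to 283.

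Signs turned for values near 0 or resting on single libraries. The median for both agents against vehicle (0.03) became -0.07 without Sample 2b, -0.07 without Sample 2c, and -0.13 without Sample 5a (highest 0.40, without Sample 2a), and that of the difference between the 1,25(OH)2D3 effects (0.22) became -0.01 with Sample 3a or with the block and -0.09 without Sample 2a (highest 0.35). MYBL2 with both agents against vehicle (-0.04) became 0.17 without Sample 2a or 5b (lowest -0.23). TPX2 turned without Sample 4a, to -1.48 for osimertinib and 0.13 for both agents against osimertinib (-2.07 and 0.21 without the letter a), and to 0.08 for both agents against vehicle without Sample 2b; with other libraries left out these 3 values reached 2.76, -3.20, and -1.93. MKI67 for both agents against 1,25(OH)2D3 became -0.02 with Sample 3a, and KIF15 in the difference between the effects became -0.09 with the block. CENPA, ESPL1, and CDC20 had libraries below 3 counts, so their fold changes rest on few counts.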

Other observations

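The members were also split by their promoter motifs. In H1975–OR against H1975 the median log2 fold change was -1.50 over the 25 genes with both a CCAAT and a CHR element and -1.41 over the 15 with a promoter that lacked one or both. With 1,25(OH)2D3 the medians were -0.62 and -0.80, and with osimertinib 0.51 and 0.57. These are descriptions with no test.

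No other mitotic or replication list held a gene called by edgeR in either 1,25(OH)2D3 comparison or in osimertinib against vehicle. In those 3 comparisons the 29 other G2/M genes had medians of -0.57 (1,25(OH)2D3 against vehicle), -0.45 (both agents against osimertinib), and 0.47 (osimertinib against vehicle), and the 35 DNA replication genes had -0.41, -0.22, and 0.25. At an unadjusted p under 0.05, the G2/M genes gave 6 lower, 4 lower, and 8 higher, and the replication genes 11 lower, 1 lower, and 3 higher, where 3.63%, 2.09%, and 3.62% of all genes were.

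Genes expressed downstream of MAPK signaling (DUSP6, SPRY4, ETV4, and ETV5), checked for the treatments, had log2 fold changes below 0 for 4 of 4 genes with osimertinib against vehicle (median -0.89, DUSP6 -1.48 ± 0.606 and SPRY4 -1.48 ± 0.817) and with both agents against vehicle (median -0.97), but edgeR called 0 of them (adjusted p = 0.607 for DUSP6 and 0.762 for SPRY4 with osimertinib), and 1 and 0 had an unadjusted p under 0.05. In H1975–OR against H1975 with vehicle, ETV5 was higher (log2 fold change 1.12 ± 0.292, edgeR adjusted p = 0.0288). It was at 48.9, 119, and 108 CPM in Samples 2a to 2c and at 42.4, 91.1, and 119 CPM in Samples 4a to 4c, with the library lettered a the lowest of each group.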
